A study of Mus musculus with 4 samples.

Results

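The 6 cadherins *Cdh2*, *Cdh4*, *Cdh5*, *Cdh11*, *Cdh13* and *Cdh15* were taken by gene symbol from the 32285 genes counted in single cells of mouse skeletal muscle, and all 6 had counts in the cells kept. Muscle stem cells (MuSCs) were sorted from hindlimb muscle of C57BL/6J mice aged 3 to 4 months, 14 days after tamoxifen, as cells with the reporter tdTomato. Control mice carried the tamoxifen-inducible recombinase Pax7CreERT2 and the ROSA26-LSL-tdTomato reporter without floxed alleles. The α-cdKO mice carried in addition Ctnna1 fl/fl and Ctnna3 fl/fl, so that the α-catenin genes were targeted in cells that used the *Pax7* promoter, and all mice of both groups had received tamoxifen. Each genotype had 2 samples, each pooled from 2 littermates, and the sort kept any cell with the reporter, which is recombined apart from the floxed alleles.

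Classical cadherins are adhesion receptors that span the membrane, bind cadherins of a neighboring cell, and hold β- or γ-catenin and, through it, α-catenin and actin at their cytoplasmic tail. In resting muscle they join the apical side of the MuSC to the myofiber. *Cdh15* encodes M-cadherin, *Cdh2* N-cadherin, *Cdh4* R-cadherin, *Cdh5* VE-cadherin of endothelial junctions and *Cdh11* OB-cadherin of mesenchymal cells. *Cdh13* encodes T-cadherin, which is held in the membrane by a lipid anchor and has no tail that binds catenins, so the name classical cadherin covers 5 of the 6.

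In the mouse GRCm38 annotation, *Cdh15* (ENSMUSG00000031962) spans chromosome 8 from 122847966 to 122867397 on the plus strand. *Cdh13* (ENSMUSG00000031841) spans chromosome 8 from 118283733 to 119324921, *Cdh5* (ENSMUSG00000031871) from 104101625 to 104144511, and *Cdh11* (ENSMUSG00000031673, minus strand) from 102632095 to 102785642. *Cdh2* (ENSMUSG00000024304, minus strand) spans chromosome 18 from 16588877 to 16809246, and *Cdh4* (ENSMUSG00000000305) spans chromosome 2 from 179442431 to 179899373. The counts mark captured RNA molecules by unique molecular identifiers (UMIs) read near the 3′ end, with no place within the gene. The spans run from 19.4 kb for *Cdh15* to 1041 kb for *Cdh13*, and whether intronic reads were counted is not given in the sources used here. Levels are therefore compared for 1 gene between cells and samples, not between genes.

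The samples held 46099310 to 74921651 UMIs, and 28790 of 31254 barcodes were kept, which had 1000 UMIs or more, 400 genes or more and less than 15% of UMIs from mitochondrial genes. The samples' medians were 6452.5 to 8075 UMIs per kept cell. Pairs of samples shared 9 to 26 barcode sequences, 101 in all. Cells were clustered without any cadherin, protocadherin or catenin gene and named by marker genes as quiescent-like (4218 cells), activated-like (21790), cycling-like (653), differentiated-like (469) and mature-muscle-like (1347), with 170 endothelial-like, 49 glial-like, 41 fibro-adipogenic-like, 28 immune-like and 25 pericyte-like cells. The first 4 classes form the 27130 myogenic cells. The activated-like name rests on 3 and 4 of 9 markers in its 2 clusters, whose mean log2 fold for the list was 0.20 and 0.05. *Ctnna1* in myogenic cells was at 91.0 and 74.8 UMIs per 1000000 UMIs of the same cells (CPM) in controls and 79.3 and 75.6 in α-cdKO, and *Ctnna3* had 1, 2, 2 and 7 UMIs. These counts carry no position relative to the deleted exons and do not check the genotype labels. In α-cdKO replicate 1, 5013 kept cells had *Xist* but no Y-linked UMI and 2915 the reverse, whereas the other 3 samples had 0 or 1 cell of the first kind.

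The myogenic cells held 98.6% of the 13252 *Cdh15* UMIs counted. They also held 230673458 of the 239582766 UMIs of all genes in kept cells, so this share is near that of all UMIs. The shares of other cadherins in myogenic cells given below are to be read beside that total. In quiescent-like cells *Cdh15* was at 91.4 and 91.2 CPM in controls and 86.4 and 101 in α-cdKO. In activated-like cells it was at 74.7 and 45.6 CPM in controls and 34.7 and 46.4 in α-cdKO. Every sample was thus higher in quiescent-like than in activated-like cells, by 1.22 to 2.49 times, and the mean levels were 92.6 ± 6.26 and 50.4 ± 17.1 CPM (SD, n = 4). In cycling-like cells it was at 119, 105, 82.4 and 102 CPM in the same order of samples, close to the quiescent-like values and above activated-like cells in 4 of 4 samples. Differentiated-like cells had 116 and 71.7 CPM in controls and 53.4 and 63.7 in α-cdKO, a mean of 76.3 ± 27.8, above activated-like cells in 4 of 4 samples but overlapping with them and with quiescent-like cells within the SD. Mature-muscle-like cells had a mean of 19.5 ± 12.3 CPM, and without their second cluster of 207 cells the mean was 6.02.

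*Cdh15* also differed within the activated-like class. The larger cluster, of 11876 cells led by chemokine genes, had a mean of 41.4 CPM, and the other, of 9914 cells led by chaperone genes, had 59.4. The first was lower in 4 of 4 samples, by 0.56 to 0.82 times.

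*Cdh2* had 1888 UMIs, 97.7% of them in myogenic cells. Its mean was 13.7 ± 3.09 CPM in cycling-like, 10.4 ± 3.55 in quiescent-like, 6.96 ± 1.96 in activated-like, 3.57 ± 3.26 in differentiated-like and 1.51 ± 0.864 in mature-muscle-like cells (n = 4). Neighbors in this order overlapped within the SD, although cycling-like cells were above quiescent-like cells, and these above activated-like cells, in 4 of 4 samples. The differentiated-like value came from 1 and 2 UMIs in controls and 24 and 7 in α-cdKO.

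*Cdh4* had 2302 UMIs, 98.2% of them in myogenic cells. Quiescent-like cells had 13.9 and 9.40 CPM in controls and 12.8 and 9.25 in α-cdKO, and activated-like cells had 11.1, 9.56, 9.19 and 10.4. The classes overlapped, with the quiescent-like value the higher in 2 of 4 samples. Cycling-like cells had 5.17 and 11.03 CPM in controls and 6.08 and 5.59 in α-cdKO, lower than activated-like cells in 3 of 4 samples. Differentiated-like cells had 0, 2.42, 4.16 and 3.07 CPM, from 0 to 12 UMIs a sample, and lay below the activated-like value in 4 of 4 samples.

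*Cdh13*, the member without a catenin-binding tail, had 24810 UMIs, 97.8% of them in myogenic cells. It was at 111 and 107 CPM in controls and 123 and 112 in α-cdKO in quiescent-like cells, and at 112, 86.6, 110 and 107 in activated-like cells. The ranges of these classes overlapped. Cycling-like cells had 139.5, 116, 143 and 120.1 CPM, above both classes in 4 of 4 samples. Differentiated-like cells had 52.5 and 14.5 CPM in controls and 30.9 and 25.9 in α-cdKO, below every quiescent-like and activated-like sample. The mean there was 30.9 ± 15.9 CPM against 104 ± 11.6 in activated-like cells, though it was 59.9 with classes made without integration of the samples and 69.0 at a clustering resolution of 0.4, settings in which that class held 1308 and 1467 cells.

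**Figure D1:**
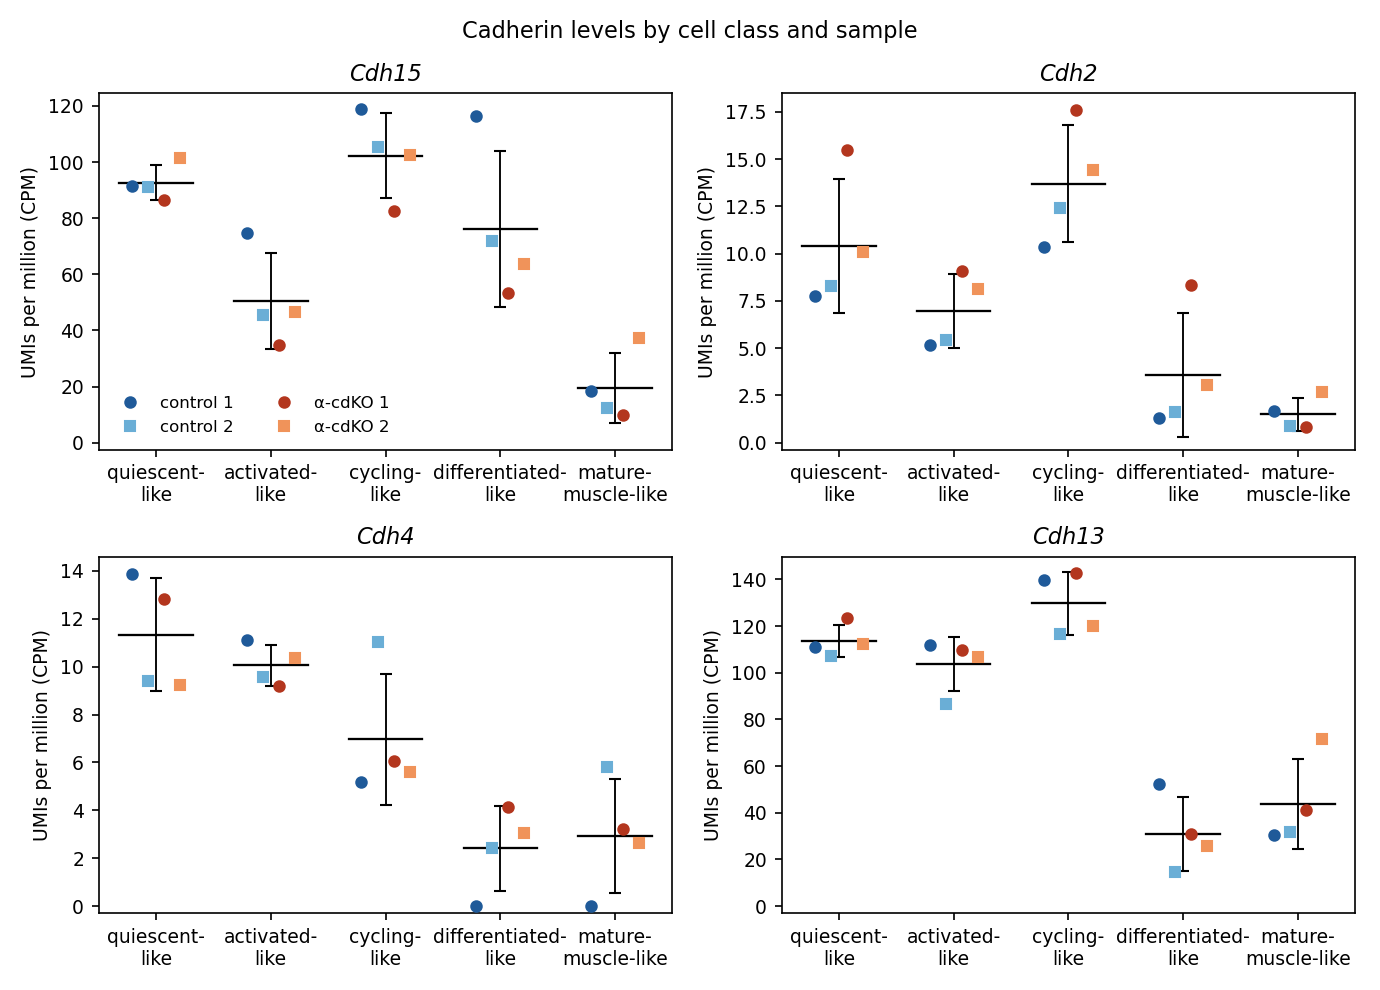
CPM of *Cdh15*, *Cdh2*, *Cdh4* and *Cdh13* (vertical axes, 1 panel a gene) in 5 cell classes (horizontal axes). Points are the 2 control and 2 α-cdKO samples, horizontal lines the mean and bars the SD over the 4 samples. *Cdh15* was lowest in mature-muscle-like cells, at 9.69 to 37.2, and *Cdh13* was lower in differentiated-like cells than in the 3 classes to the left in every sample.

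The cycling-like cells of control replicate 1 were 30, and 1 of them carried 9991 UMIs of *S100a8* and *S100a9*, genes known from neutrophils. Without that cell the levels there were 125 CPM for *Cdh15*, 10.9 for *Cdh2*, 5.45 for *Cdh4* and 147 for *Cdh13*. The ratio of *Cdh13* to *Cdh15* UMIs was 1.43, 1.60, 2.46 and 1.91 in myogenic cells of controls 1 and 2 and α-cdKO 1 and 2. In differentiated-like cells it was 0.451, 0.202, 0.578 and 0.407, lower than in every sample of the whole.

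*Cdh5* was a gene of the endothelial-like cells, which held 94.3% of its 892 UMIs. They had 617 and 669 CPM in controls and 514 and 555 in α-cdKO, a mean of 589 ± 68.2 (n = 4). All myogenic cells together held 9 *Cdh5* UMIs in 27130 cells, a mean of 0.0421 CPM, and differentiated-like cells held 0, which allows up to 0.418 CPM by a floor of 3 counts. In myogenic cells there were 0.699 *Cdh5* UMIs for each 100 UMIs of the 7 endothelial markers, against 21.7 in endothelial-like cells. The markers summed to 1287 UMIs in the myogenic cells, with 4.57 to 6.61 CPM in the 4 samples. Quiescent-like cells held 565 of these, at 14.9 to 31.9 CPM, with 3 of the 7 markers at 0. Activated-like cells held 589, at 2.67 to 3.71 CPM. *Cdh5* had 1 and 7 UMIs there, or 0.177 and 1.19 for each 100 marker UMIs. The pooled ratio thus joins classes that differ in marker level, and whether the marker UMIs came from endothelial cells was not tested. Pericyte-like cells had 13 and 0 *Cdh5* UMIs in controls and 1 and 20 in α-cdKO, from 4 to 11 cells a sample.

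*Cdh13* was above its myogenic level in endothelial-like cells in 4 of 4 samples, at 214 and 147 CPM in controls and 204 and 119.8 in α-cdKO, by 1.14 to 1.93 times. For each 100 UMIs of the endothelial markers there were 1885 *Cdh13* UMIs in myogenic cells and 6.61 in endothelial-like cells.

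The endothelial-like class also had 49 *Cdh15*, 17 *Cdh2* and 14 *Cdh4* UMIs. Of these, 47, 17 and 14 were in 1 of its 3 clusters, of 75 cells, and 60 of those 75 cells carried *Myod1* or *Myf5* UMIs, 756 in all. The other clusters, of 57 and 38 cells, had 3 and 7 *Myod1* and *Myf5* UMIs and 1 *Cdh15* UMI each, with no *Cdh2* or *Cdh4*. The share of cells among the highest doublet scores was 13.3% in the first cluster and 0% and 2.63% in the others. Without the first cluster the endothelial-like mean was 1030 CPM for *Cdh5*, 228 for *Cdh13* and 5.67 for *Cdh15*.

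**Figure D2:**
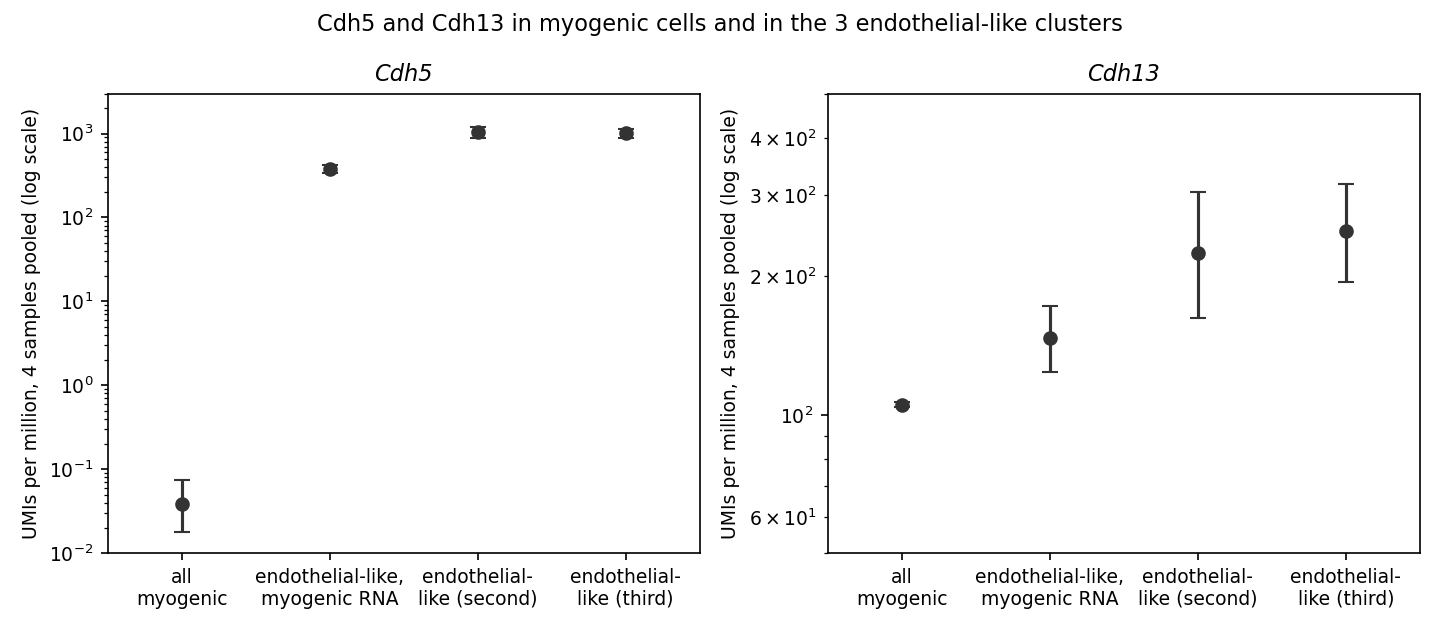
CPM of *Cdh5* and *Cdh13* (vertical log axes) in all myogenic cells and in the 3 endothelial-like clusters, the 4 samples pooled. Bars are exact Clopper-Pearson 95% intervals, which cover counting error only. *Cdh5* was at 378 in the cluster with myogenic RNA, and at 1036 and 1007 in the other clusters, and *Cdh13* was at 147, 225 and 251.

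*Cdh11* had 178 UMIs in all, 85.4% of them in myogenic cells, where its level was 0.691 ± 0.173 CPM (n = 4). The fibro-adipogenic-like cells, of mesenchymal kind, had 5 and 1 UMIs in controls and 15 and 0 in α-cdKO, or 41.9 ± 44.6 CPM from 5 to 18 cells a sample. For each 100 UMIs of the 6 fibro-adipogenic markers there were 0.0608 *Cdh11* UMIs in myogenic and 0.119 in fibro-adipogenic-like cells, but these markers summed to 249889 UMIs in myogenic cells and are not particular to the other type. *Cdh2* and *Cdh15* UMIs were also found in glial-like cells, at 37.5 ± 30.8 and 75.4 ± 50.4 CPM. That *Cdh2* mean was the highest of all classes, though it overlapped with others within the SD. It was 4.96 times the myogenic mean, and higher in 3 of 4 samples. For *Cdh15* the fold was 1.29, with 2 of 4 samples higher. Those 49 cells held 13 *Cdh2* UMIs in 9 cells and 27 *Cdh15* UMIs in 8 cells, beside 95 *Myod1* and *Myf5* UMIs in 11 cells.

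To test cadherin levels between states set by a few marker genes in place of clusters, myogenic cells were also gated by marker UMIs after each cell was thinned to 2000 UMIs. The gates were *Pax7* without *Myod1* or *Myog* (2516 cells), *Myod1* without *Pax7* or *Myog* (6757), any *Myog* (558), and *Top2a*, *Mki67* or *Cdk1* without *Myog* (667). The *Pax7* and *Myod1* gates also left out cells with a UMI of *Top2a*, *Mki67* or *Cdk1*. *Pax7* marks the stem cell, *Myod1* the activated cell, *Myog* the cell committed to differentiate, and the last 3 genes the cell cycle. The UMIs of each sample and gate were added up and compared by the quasi-likelihood method of edgeR, with the sample as a block, a trimmed-mean (TMM) scaling and Benjamini-Hochberg adjustment over all genes tested.

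The 100 most abundant genes of a gate held 51.5% of its UMIs in *Myod1*-only, 53.2% in *Pax7*-only, 46.1% in *Myog*+ and 42.5% in cycling cells. With total UMIs as the scale, which was chosen after seeing the data, the median log2 fold change over all genes was 0.19 for *Pax7*-only, 0.28 for *Myog*+ and 0.58 for cycling against *Myod1*-only cells, compared with 0.05, −0.05 and 0.01 under TMM. The genes called were 21.6% higher and 22.4% lower, 28.4% and 32.1%, and 26.7% and 29.1% of those tested under TMM, and 32.4% and 14.2%, 40% and 20.7%, and 50.7% and 11.3% with total UMIs. The median cell had 13550.5 UMIs in *Myog*+ and 13755 in cycling cells, against 7745 in *Myod1*-only and 7292.5 in *Pax7*-only cells. Each direction below is therefore relative to the other genes, and the values with total UMIs and per cell are given beside it.

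From *Myod1*-only to *Myog*+ cells, *Cdh13*, *Cdh4* and *Cdh2* fell and *Cdh15* rose, and all 4 cadherins tested were called, in a contrast in which 60.4% of 11514 genes were. *Cdh13* was at 115, 88.0, 108 and 111 CPM in *Myod1*-only cells of controls 1 and 2 and α-cdKO 1 and 2, and at 49.5, 24.5, 41.0 and 30.9 in *Myog*+ cells. The gates did not overlap, and the log2 fold change was −1.91 (SE 0.13, edgeR adjusted p = 7.93e-09) under TMM and −1.58 with total UMIs. *Cdh4* went from 11.1, 10.8, 7.63 and 11.7 CPM to 0, 2.51, 5.67 and 3.31, a log2 fold change of −1.81 (SE 0.35, edgeR adjusted p = 0.000346), or −1.49 with total UMIs. *Cdh2* went from 6.30, 7.36, 9.25 and 8.79 CPM to 1.15, 1.89, 8.34 and 4.78, a log2 fold change of −1.14 (SE 0.29, edgeR adjusted p = 0.00353), or −0.81 with total UMIs (adjusted p = 0.0264). Both genes were lower in 4 of 4 samples, from 0 to 25 UMIs a sample in *Myog*+ cells. *Cdh15* went from 77.0, 44.9, 37.9 and 46.9 CPM to 133, 83.6, 60.4 and 70.7, higher in 4 of 4 samples, with a log2 fold change of 0.40 (SE 0.11, edgeR adjusted p = 0.0050), or 0.73 with total UMIs. Its call was lost without the sample as a block (adjusted p = 0.153).

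Counted per cell, *Cdh13* went from 957 to 569 UMIs per 1000 cells, *Cdh4* from 94.6 to 41.4, *Cdh2* from 71.4 to 57.7 and *Cdh15* from 475 to 1406 (means of the 4 samples). *Cdh13* was lower and *Cdh15* higher in 4 of 4 samples on this scale, whereas *Cdh4* and *Cdh2* were higher in 1 of 4.

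From *Myod1*-only to *Pax7*-only cells, *Cdh15* rose with a log2 fold change of 0.37 (SE 0.11, edgeR adjusted p = 0.0101), or 0.51 with total UMIs, where 44.0% of 11766 genes were called. It was at 77.1 and 76.1 CPM in *Pax7*-only cells of controls and 58.7 and 76.3 in α-cdKO, against 77.0 and 44.9, and 37.9 and 46.9, in *Myod1*-only cells. In control replicate 1 the ratio of the gates was 1.00, and the other 3 samples were higher in *Pax7*-only cells. The call was lost without α-cdKO replicate 2 (log2 fold change 0.29, edgeR adjusted p = 0.0915) and without the sample as a block (adjusted p = 0.184). *Cdh2*, *Cdh4* and *Cdh13* were not called, with log2 fold changes of 0.12 (SE 0.16), 0.02 (SE 0.15) and −0.00 (SE 0.07), and 0.26, 0.16 and 0.14 with total UMIs.

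From *Myod1*-only to cycling cells, *Cdh15* rose with a log2 fold change of 0.42 (SE 0.11, edgeR adjusted p = 0.00345), or 0.99 with total UMIs, where 55.8% of 12386 genes were called. Its call was lost without the sample as a block (adjusted p = 0.126). It was at 116, 95.7, 82.0 and 99.2 CPM, higher in 4 of 4 samples, and at 1372 UMIs per 1000 cells against 475. *Cdh13* depended on the scale, with a log2 fold change of −0.27 (SE 0.09, edgeR adjusted p = 0.0259) under TMM and of 0.31 (adjusted p = 0.0129) with total UMIs. The TMM call was lost in DESeq2 (adjusted p = 0.0687) and without any 1 of the 4 samples (adjusted p = 0.0545 to 0.160). Its CPM was higher in cycling cells in 4 of 4 samples, by 1.08 to 1.39 times. *Cdh4* was lower under TMM, with −0.80 (SE 0.20, edgeR adjusted p = 0.00338), but not with total UMIs, with −0.23 (adjusted p = 0.360), and its CPM was lower in 2 of 4 samples. *Cdh2* had 0.09 (SE 0.18, edgeR adjusted p = 0.702) under TMM and 0.66 (adjusted p = 0.00732) with total UMIs, with a CPM 1.31 to 1.79 times that of *Myod1*-only cells.

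**Figure D3:**
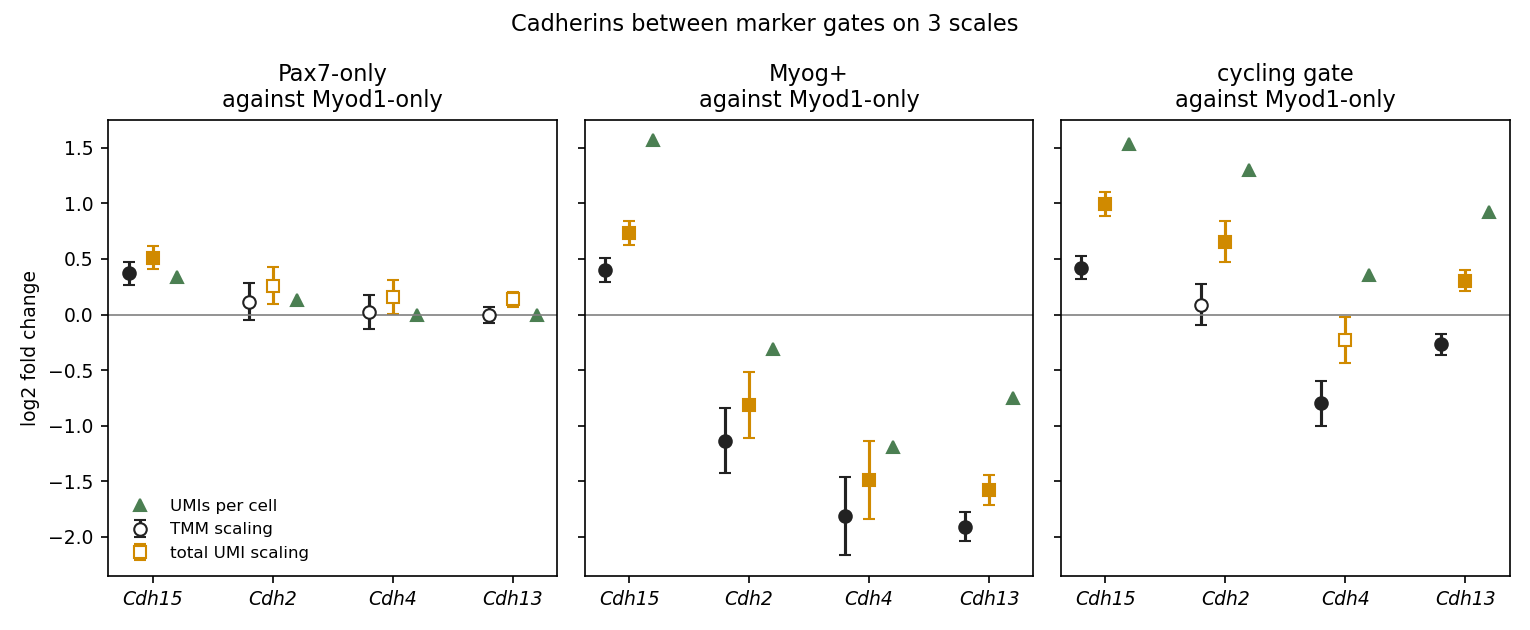
Log2 fold change of *Cdh15*, *Cdh2*, *Cdh4* and *Cdh13* (horizontal axes) in *Pax7*-only, *Myog*+ and cycling cells against *Myod1*-only cells (panels). Black circles are edgeR with TMM scaling and orange squares edgeR with total UMIs, both with the standard error and filled where the adjusted p was under 0.05, and green triangles are the ratio of mean UMIs per cell. In cycling cells *Cdh13* was at −0.27 under TMM and 0.31 with total UMIs, while in *Myog*+ cells *Cdh13* was below 0 on all 3 scales.

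Other genes of the cadherin complex were read from a list of 45, by their roles. In *Myog*+ against *Myod1*-only cells 27 could be tested, and 3 were higher and 12 lower, where 28.4% and 32.1% of all genes were, with a median log2 fold change of −0.49 beside −0.05 over all genes. Among catenins, *Ctnna1* (α-catenin) had −0.96 (edgeR adjusted p = 9.70e-06), *Ctnnb1* (β-catenin) −0.10 (adjusted p = 0.368) and *Ctnnd1* (p120-catenin, which binds the cadherin tail near the membrane) −0.01 (adjusted p = 0.943). *Ctnna1* is a targeted gene in the α-cdKO samples, which gave 247 and 168 *Myog*+ cells beside 50 and 93 in controls. Its change with state was not tested apart from the deletion. Of the nectins and afadin, which form a neighboring adhesion system, 3 of 4 tested fell, *Nectin3* with −2.03 (edgeR adjusted p = 2.75e-08) and *Nectin1* with −0.77. *Cdon* and *Boc*, co-receptors that bind cadherins in myogenic cells, had −0.65 (edgeR adjusted p = 0.00174) and −1.98 (adjusted p = 2.08e-05). *Neo1*, the other co-receptor listed, was tested and not called. Actin linkers moved in both directions, with 2 higher and 3 lower of 6. In *Pax7*-only cells 8 were higher and 7 lower of 27, where 21.6% and 22.4% of all genes were. In cycling cells 7 were higher and 10 lower of 28, where 26.7% and 29.1% of all genes were. The medians of the list were −0.00 and −0.19, beside 0.05 and 0.01 over all genes. The 17 other cadherins had at most a mean of 2.00 CPM in myogenic cells (*Cdh23*), followed by *Cdh6* at 1.67.

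The share of cells in which a cadherin was found was low at this depth. With each cell thinned to 2000 UMIs, 17.7% of 26786 myogenic cells had a *Cdh13* UMI (exact Clopper-Pearson 95% interval 17.3% to 18.2%) and 10.0% a *Cdh15* UMI (9.66% to 10.4%). *Cdh4* was found in 1.81%, *Cdh2* in 1.48%, *Cdh11* in 0.0971% and *Cdh5* in 0.00747%, or 2 cells. These intervals cover counting error only. *Cdh15* was found in 16.2% of quiescent-like, 8.60% of activated-like, 16.7% of cycling-like, 11.6% of differentiated-like and 2.81% of mature-muscle-like cells. *Cdh13* was found in 19.6%, 17.4%, 23.9%, 5.69% and 6.06% of the same classes. In endothelial-like cells, *Cdh5* was found in 62.3% (54.2% to 70.0%) and *Cdh13* in 34.4%. *Cdh2* was found in 0 of 154 endothelial-like cells at that depth, where 3 counts would be 1.95%, and in 10 of 170 without thinning. Unthinned, the myogenic shares were 49.6% for *Cdh13*, 31.2% for *Cdh15*, 6.50% for *Cdh4* and 5.60% for *Cdh2*.

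Of the 5 members that bind catenins, 87.0% of myogenic cells had none at 2000 UMIs, 12.6% had 1 and 0.426% had 2 or more. Without thinning the shares were 61.5%, 33.5% and 5.00%, so a cell without a UMI is not a cell without the gene. The 6 pairs of *Cdh15*, *Cdh2*, *Cdh4* and *Cdh13* were set against the number of cells expected if each were found independently. *Cdh15* and *Cdh2* were found together in 59 cells where 39.7 were expected, 1.49 times (1.13 to 1.92, counting error only), and in the 4 samples the ratio was 1.38, 1.32, 1.90 and 1.39. At 4000 UMIs per cell the same pair was at 138 cells where 126 were expected, 1.09 times (0.918 to 1.29), so the excess was not kept at the greater depth. In CPM both genes were higher in quiescent-like and cycling-like than in activated-like cells. Within activated-like cells the ratio was 1.35 (0.934 to 1.88). Whether the mix of classes bears on the excess was not tested. The other 5 pairs had ratios of 0.697 to 1.13 at 2000 UMIs, and each interval held 1.

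**Figure D4:**
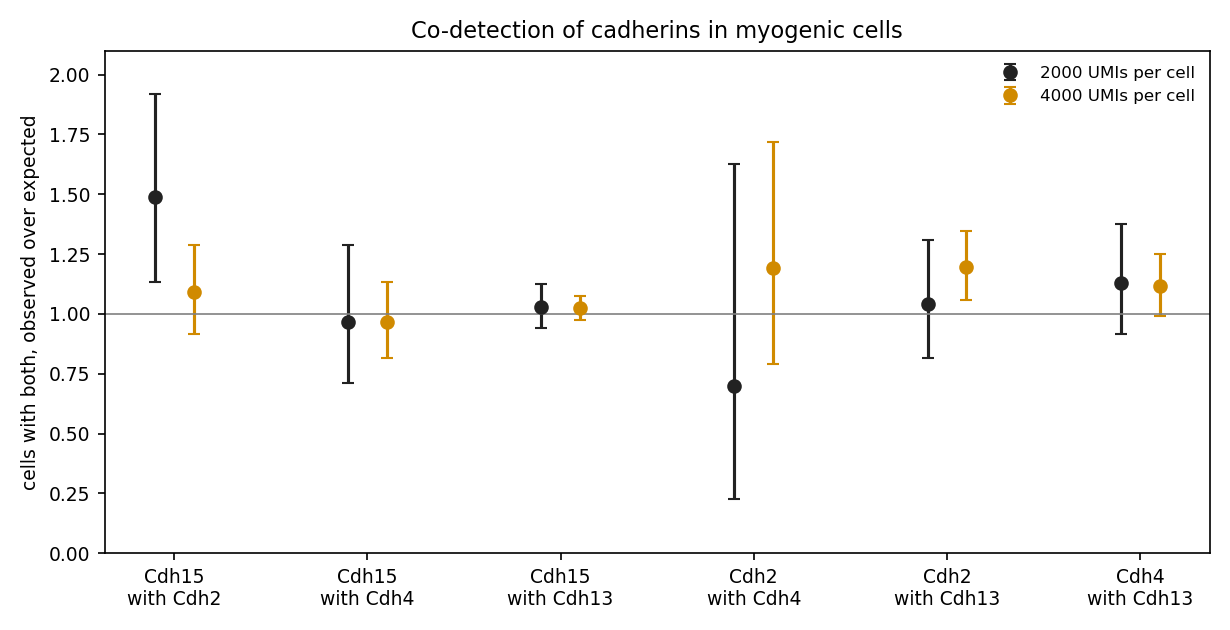
Myogenic cells with UMIs of both genes of a pair over the number expected from independent detection (vertical axis) for 6 pairs, with cells thinned to 2000 UMIs (black) or 4000 UMIs (orange), the 4 samples pooled. Bars are intervals of counting error. *Cdh15* with *Cdh2* was at 1.49 at 2000 UMIs and 1.09 at 4000.

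To ask whether the α-cdKO genotype went with altered cadherin RNA, the summed UMIs of each sample in a class were compared by the same edgeR method (n = 2 samples a genotype). Loss of α-catenin in the cells counted was not tested. In all myogenic cells 0 of the 5 cadherins tested were called, where 24 of 14637 genes (0.164%) were, 0.0683% higher and 0.0956% lower in α-cdKO. An unadjusted p under 0.05 was found for 1 member and for 1032 of the 14637 genes. DESeq2 called 0 of 5, also with 1 under 0.05, beside 825 of all genes. *Cdh5* had too few UMIs to be tested. In quiescent-like and activated-like cells 0 of 4 and 0 of 5 were called, beside 0.0609% of genes (0.0435% higher, 0.0174% lower) and 0.235% (0.117% each way). In each, 1 member was under an unadjusted p of 0.05, beside 891 of 11490 and 1058 of 13636 genes. In cycling-like and differentiated-like cells 0 of 4 and 0 of 2 were called, beside 0.0223% of genes (all higher) and 0.0374% (0.0249% higher, 0.0125% lower). There 0 and 1 members were under an unadjusted p of 0.05, beside 755 of 8962 and 372 of 8029 genes. DESeq2 called 0 in these 4 classes, with 0, 2, 0 and 0 members under an unadjusted p of 0.05, beside 366, 750, 245 and 100 of all genes. The samples of a genotype are separate pools of mice, and with 2 a genotype the exact permutation test cannot go below p = 0.33.

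*Cdh2* was the member under 0.05 in all myogenic cells. It was at 5.45 and 5.99 CPM in controls and 10.5 and 8.39 in α-cdKO, from 246 to 732 UMIs a sample. The log2 fold change was 0.71 (SE 0.16, unadjusted p = 0.00399, edgeR adjusted p = 0.419). In quiescent-like cells it was at 7.74 and 8.26 CPM in controls and 15.5 and 10.1 in α-cdKO, with a log2 fold change of 0.70 (SE 0.25, edgeR adjusted p = 0.574), which was 0.37 without α-cdKO replicate 1. In activated-like cells it was at 5.17 and 5.43 against 9.10 and 8.13 CPM, with 0.72 (SE 0.17, edgeR adjusted p = 0.320). In cycling-like cells it was at 10.3 and 12.4 against 17.6 and 14.4 CPM, with 0.54 (SE 0.33, edgeR adjusted p = 0.667). α-cdKO was thus the higher in each of these classes, without passing the threshold. Over the alternatives the fold change in all myogenic cells ran from 0.53 to 0.83 and its adjusted p from 0.118 to 1.00. In activated-like cells it passed in a fit with no count filter (adjusted p = 0.0277) and in no other.

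α-cdKO replicate 1, the sample with the highest *Cdh2*, was also the one with *Xist* cells. When only cells that had Y-linked UMIs and lacked *Xist* were summed, the log2 fold change of *Cdh2* was 0.53 in all myogenic and 0.18 in quiescent-like cells (edgeR adjusted p = 0.879 and 0.975). The share of myogenic cells with a *Cdh2* UMI at 2000 UMIs was 1.16% and 1.17% in controls and 1.66% and 1.64% in α-cdKO (two-sided exact permutation p = 0.33, the smallest possible).

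*Cdh15* had a log2 fold change of −0.42 in all myogenic cells (SE 0.21, edgeR adjusted p = 0.722), with 77.8 and 55.3 CPM in controls and 45.0 and 55.0 in α-cdKO, and −0.13 without control replicate 1. It had 0.08 in quiescent-like cells (SE 0.14, edgeR adjusted p = 0.908), −0.54 in activated-like cells (SE 0.24, edgeR adjusted p = 0.647) and −0.64 in differentiated-like cells (SE 0.27, edgeR adjusted p = 0.992), where it was −0.29 without control replicate 1. In activated-like cells control replicate 1, at 74.7 CPM, stood above the other 3 samples at 34.7 to 46.4, and without it the log2 fold change was −0.17. The difference between the genotype effects of quiescent-like and activated-like cells was 0.60 for *Cdh15* (SE 0.19, unadjusted p = 0.00691, edgeR adjusted p = 0.927), where 1 of 13882 genes (0.0072%) was called. DESeq2 called 0 of 5 members there, with 1 under an unadjusted p of 0.05, as in edgeR. Of all genes, 160 were under it in DESeq2 and 638 in edgeR. The share of myogenic cells with *Cdh15* was 14.2% and 10.4% in controls and 7.51% and 9.96% in α-cdKO (two-sided exact permutation p = 0.33).

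*Cdh13* had 111 and 88.6 CPM in controls and 111 and 105 in α-cdKO in all myogenic cells, with a log2 fold change of 0.11 (SE 0.15, edgeR adjusted p = 0.867). *Cdh4* had 11.2 and 9.38 against 9.07 and 9.88 CPM, with −0.12 (SE 0.17, edgeR adjusted p = 0.865), and *Cdh11* had −0.52 (SE 0.32, edgeR adjusted p = 0.756). The genotypes overlapped for *Cdh13* and *Cdh4*. Of the listed genes of the cadherin complex, 31 were tested in all myogenic cells and 0 were called by edgeR. Of these, 1 (*Cdh10*) had an unadjusted p under 0.05, as did 1032 of all 14637 genes. The median log2 fold change of the listed genes was 0.07, beside −0.01 over all genes.

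**Figure D5:**
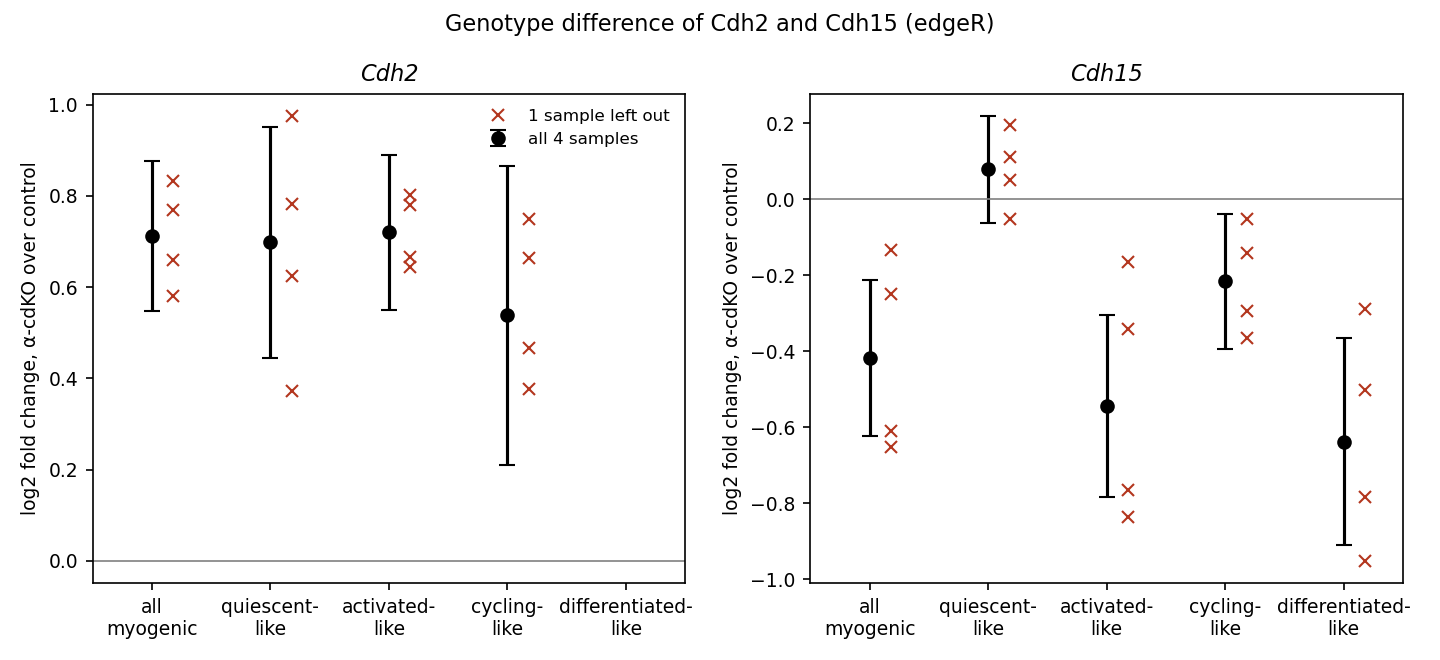
Log2 fold change of *Cdh2* and *Cdh15* between genotypes (vertical axes, α-cdKO over control) in all myogenic cells and 4 classes (horizontal axes). Black points are the fit with all 4 samples with its standard error, and crosses are fits with 1 sample left out. *Cdh2*, which was not tested in differentiated-like cells, lay above 0 throughout, from 0.37 to 0.98 with 1 sample left out, and *Cdh15* in quiescent-like cells lay on both sides of 0.

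Over 24 points, the 6 classes with at least 20 cells in every sample times the 4 samples, log2(CPM + 1) of each member was compared with 4800 genes. The 3 genes most like *Cdh15* were *Dag1* (r = 0.92), which encodes the laminin receptor dystroglycan, *Ctsz* (0.92) and *Mxra7* (0.91). For *Cdh2* they were *Nfib* (0.92), *Hdgfl3* (0.91) and *Clstn1* (0.90), for *Cdh13* *Atp2b4* (0.97), *Ltbp4* (0.95) and *Crip1* (0.94), and for *Cdh4* *Mapt* (0.79), *Abi3bp* (0.79) and *Edn3* (0.77). For *Cdh5* they were *Adgrl4*, *Cyyr1* and *Sox17*, at 0.998, 0.996 and 0.996, the last an endothelial transcription factor, and 1 endothelial-like class set that pattern. Between members, *Cdh2* and *Cdh13* had r = 0.77, *Cdh2* and *Cdh4* 0.61, and *Cdh15* and *Cdh4* 0.20. Points of a sample share a library, and points of a class share cell depth, so these values describe the pattern over classes only.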

How the data were processed

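Single cell RNA-sequencing covered tdTomato+ cells of 2 control and 2 α-cdKO samples, with 30000 cells loaded a sample. The authors deposited whole counts of UMIs per gene and barcode from Cell Ranger, aligned to GRCm38, with no normalization. Per the labels, Seurat 4.0.3 was also used. The members and lists were chosen with earlier results of these data known.

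Cells were clustered in Seurat 5.3.0 (2000 variable genes without 102 cadherin and catenin genes, 30 components, Harmony implemented anew, Louvain resolution 0.2) and named from clusters with at least 3 markers raised 1.5-fold, with mature muscle and non-myogenic cells set aside in a first round. Scrublet (scanpy 1.11.5) gave doublet scores, and its automatic threshold marked at most 4 cells a sample, so the highest scores, 0.8% per 1000 cells, were removed as an alternative. Class levels are a description, because clusters are made from the same cells. A class with under 20 cells in a sample was not tested.

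Sums per sample were compared in edgeR 4.0.16 by quasi-likelihood after filterByExpr and TMM, and in DESeq2 1.42.0 as an alternative, with adjusted p values under 0.05 called over all genes. The edgeR fit and the Harmony step were tested on simulated data, and DESeq2 was not. Named genes are the 6 cadherins, up to 3 of each listed group by mean CPM with others named after their values were seen, and the 3 genes of most similar pattern. R 4.3.3, Python 3.11.15, scipy 1.17.1 and pandas 2.3.3 were used. Alternatives covered the test, scaling, count filter, block, replicates left out, depth, doublets, sex, integration and resolution.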

Additional observations from a re-analysis of the deposited data

Results flagged for a closer look

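Of 24 levels over the 4 samples, 1 had a sample far from the others by Dixon's test at the 95% level, a test that marks about 1 in 20 sets of values by chance. *Cdh4* in cycling-like cells was at 11.03 CPM in control replicate 2 and between 5.17 and 6.08 CPM in the other 3 samples. It rests on 16 *Cdh4* UMIs in 86 cells there and on 3, 38 and 12 UMIs in the other samples.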

How the results depend on the processing

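Of 108 repeats of the gate contrasts, 85 kept direction and call, as did 241 of 257 of the genotype contrasts and 9 of 10 of the interaction, while 25 of 64 gene counts, 209 of 223 class levels, 35 of 36 co-detection ratios and 15 of 27 shares stayed near their value. The cause of a change was not tested except where the setting itself removes cells or genes. In the gates, without the sample as a block, the log2 fold change of *Cdh15* was 0.43 in *Myog*+, 0.36 in *Pax7*-only and 0.39 in cycling cells, all no longer called, and that of *Cdh13* 0.0144 in *Pax7*-only and −0.23 in cycling cells. With total UMIs it was 0.14 for *Cdh13* in *Pax7*-only cells, and 0.31 for *Cdh13*, 0.66 for *Cdh2* and −0.23 for *Cdh4* in cycling cells. With gates set before thinning it was 0.0695 for *Cdh13* and −0.0374 for *Cdh4* in *Pax7*-only and −0.13 for *Cdh13* in cycling cells. In DESeq2 *Cdh4* was at −0.0197 in *Pax7*-only and *Cdh13* at −0.24 in cycling cells. With 1 sample left out, values in *Pax7*-only cells ran from −0.0312 to 0.0299 for *Cdh13*, 0.29 to 0.54 for *Cdh15*, −0.10 to 0.25 for *Cdh2* and −0.13 to 0.17 for *Cdh4*, and in cycling cells from −0.29 to −0.18 for *Cdh13*.

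Between genotypes, *Cdh2* in activated-like cells was at 0.73 with no count filter, and called. In Y-linked cells without *Xist*, *Cdh13* was at −0.000614 in all myogenic, −0.0407 in cycling-like and −0.0681 in quiescent-like cells. Without integration *Cdh13* was at 0.24 in differentiated-like cells and the interaction of *Cdh2* at 0.18. The activated-like class of that setting lacked a cluster of 8182 cells led by chaperone genes, which had no name. With 1 sample left out, *Cdh13* ran from −0.000818 to 0.32 in activated-like, −0.0569 to 0.29 in all myogenic, −0.00974 to 0.25 in cycling-like and −0.84 to 0.98 in differentiated-like cells. *Cdh4* ran from −0.15 to 0.0346, −0.25 to 0.0255 and −0.83 to 0.27 in the first 3 of these and from −0.27 to 0.23 in quiescent-like cells, where *Cdh15* ran from −0.0532 to 0.20. Of these values, that of *Cdh2* was the one called.

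Genes called in activated-like, all myogenic, cycling-like, differentiated-like and quiescent-like cells numbered 113, 123, 21, 8 and 20 in DESeq2 and 422, 14, 247, 74 and 268 with no count filter. With 1 sample left out they ran from 41 to 88, 4 to 58, 0 to 106, 35 to 86 and 12 to 82. Each of the 4 samples moved the count by over 1.5 times in all but activated-like cells, where control replicate 2 (70 genes) and α-cdKO replicate 2 (88 genes) did. With a replicate block they were 16, 16, 29, 6 and 89, beside 32, 24, 2, 3 and 7 in the main fit. The labels do not say whether same-numbered samples are pairs. Deviations of the samples numbered 1 had r = −0.06 over 2084 genes in all myogenic cells, and 1 such value cannot exclude a pairing. No cadherin was called with the block. Without integration there were 20 in activated-like, 5 in cycling-like and 1 in differentiated-like cells. In that setting a cluster of 8182 cells led by chaperone genes had no name. The activated-like class was then the 12852 cells led by chemokine genes. With the highest doublet scores removed there were 1 in differentiated-like and 11 in quiescent-like cells, and cycling-like cells gave 4 with 2000 UMIs or more and 8 in Y-linked cells.

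At resolution 0.4, *Cdh15* was at 85.4 CPM in quiescent-like and *Cdh13* at 69.0 in differentiated-like cells, the latter 59.9 without integration. Without the second mature muscle cluster, *Cdh15* was at 6.02, *Cdh13* at 22.4 and *Cdh2* at 0 CPM, and *Cdh2* was also 0 with the highest doublet scores removed and 0.504 as a mean over cells. In endothelial-like cells, means over cells were 768 for *Cdh5* and 19.5 for *Cdh15*, *Cdh15* was at 47.4 without integration, and without the cluster with myogenic RNA they were 1030 for *Cdh5*, 228 for *Cdh13* and 5.67 for *Cdh15*. Shares at 4000 UMIs and with no thinning were 17.97% and 31.2% for *Cdh15*, 2.81% and 5.60% for *Cdh2*, 3.35% and 6.50% for *Cdh4*, 31.7% and 49.6% for *Cdh13*, and 72.2% and 81.2% for *Cdh5* in endothelial-like cells. The α-cdKO minus control share was 0.0333 percentage points for *Cdh4* at 4000 UMIs and −0.235 for *Cdh13* with no thinning, both of opposite sign to the main value. *Cdh15* with *Cdh2* was at 1.09 at 4000 UMIs. *Xist* cells were not tested in any class, nor Y-linked cells in the differentiated-like class, as too few cells were left in a sample.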
